A study of Homo sapiens with 12 samples.

Results

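The genes described here were the E2F transcription factors E2F1 to E2F8 and the pocket proteins RB1 and RBL1 (p107), 10 genes chosen by symbol among the 63568 genes of a TPM table from LNCaP cells. All 10 passed the filter on low values and were among the 16337 genes tested. LNCaP is an androgen-sensitive prostate cancer cell line derived from a lymph node metastasis. The cells were transfected with a pool of non-targeting siRNAs (si-NT) or with 1 of 2 siRNAs that target SMARCA4, the gene that encodes BRG1, the catalytic ATPase of SWI/SNF chromatin remodelling complexes. RNA was collected 72 h after transfection, or at 144 h after the cells had been split and transfected again at 72 h, so the si-NT cells of 144 h also received siRNA at both points. There were 2 libraries for each siRNA at each time point, 12 in all, which gives 2 si-NT and 4 BRG1 depleted libraries per time point. The siRNAs are called siRNA 2 and siRNA 3 here, as in the header of the table. All groups share the parental cell line and the medium, the knock-down is partial and transient, and nothing in the labels says whether replicates were separate cultures, so the p-values measure the spread between these libraries, which may be technical.

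E2F factors bind the promoters of genes needed for DNA synthesis and cell division. E2F1, E2F2 and E2F3 are known mainly as activators, E2F4 and E2F5 mainly as repressors that act with pocket proteins, E2F6 as a repressor that does not bind pocket proteins and works with Polycomb-related partners, and E2F7 and E2F8 as atypical repressors that bind DNA without a DP partner. Pocket proteins bind E2Fs and hold their target genes down until cyclin-dependent kinases phosphorylate them at the G1/S transition. Several E2F genes and RBL1 are themselves E2F targets, so that their mRNA normally rises as cells enter S phase.

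The promoter stretches of 6 members are shown because the recognition sequence of the family is written in some of them and not in others. Each is the 80 bases before the RefSeq start site of GRCh38.p14, written 5′ to 3′ on the strand of the gene. Capitals mark any of the 8-base forms TTTCCCGC, TTTCGCGC, TTTGCCGC and TTTGGCGC on either strand.
E2F1: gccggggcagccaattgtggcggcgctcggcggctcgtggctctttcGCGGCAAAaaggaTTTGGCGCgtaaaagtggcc
E2F2: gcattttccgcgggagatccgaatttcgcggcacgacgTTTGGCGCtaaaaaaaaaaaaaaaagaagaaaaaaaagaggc
E2F3: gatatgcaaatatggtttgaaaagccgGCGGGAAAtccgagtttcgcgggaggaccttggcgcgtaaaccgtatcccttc
RBL1: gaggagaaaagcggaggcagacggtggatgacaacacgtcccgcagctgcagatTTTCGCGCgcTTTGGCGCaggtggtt
E2F7: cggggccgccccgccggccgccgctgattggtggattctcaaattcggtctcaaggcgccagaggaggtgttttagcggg
E2F4: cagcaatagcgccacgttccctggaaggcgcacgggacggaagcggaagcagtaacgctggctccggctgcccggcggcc

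The stretches lie at chr20:33686386-33686465 for E2F1, chr1:23531234-23531313 for E2F2, chr20:37095998-37096077 for RBL1 and chr12:77065570-77065649 for E2F7, all on the minus strand, and at chr6:20401799-20401878 for E2F3 and chr16:67192075-67192154 for E2F4 on the plus strand. E2F1 and RBL1 each held 2 matches within 33 bases of the start, on opposite strands in E2F1 and both on the gene strand in RBL1. The match of E2F2 began 42 bases before the start, and that of E2F3 lay 53 bases before it on the opposite strand. Of the 8 members with an entry in the table of promoters, which spans 250 bases before to 50 after the start, 4 held an 8-base match. Among all 27305 genes of that table, 3.992% held one. With the first T left off, 6 of the 8 members matched, E2F6 and E2F7 in addition, against 15.27% of all genes. The forms were chosen after several had been tried and values had been seen, so these shares are descriptions without a test. The RB1 window of the table begins at a start site 172.7 kb inside the RefSeq gene and so is not the upstream promoter of the gene, and E2F5 and E2F8 had no entry.

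SMARCA4 itself was read first, as the check of the knock-down. At 72 h its level was 97.01 and 73.44 TPM in control cells and 17.48 to 21.70 TPM in the 4 BRG1 depleted libraries. At 144 h the si-NT libraries held 94.50 and 106.59 TPM and the depleted libraries 11.42 to 17.44 TPM. The groups were far apart at both time points. The log2 fold change, computed throughout on TPM with a pseudocount of 1, was -2.07 at 72 h (limma, adjusted p = 0.000538) and -2.66 at 144 h (adjusted p = 1.01e-05). All 9 LNCaP markers examined, KLK3 among them, reached 1 TPM in every group. Of the 11 markers of fibroblasts, blood, endothelial and basal cells that were found in the table, COL1A1 alone reached 1 TPM, COL1A2 and CD3E were at 0 in every library, and their summed level was 4.25 to 9.91 TPM.

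In si-NT cells the members spanned about 10-fold in level. TPM is scaled to transcript length, so levels can be compared between genes. E2F4 was the most abundant member at 45.9 ± 2.63 TPM (SD, n = 4, both time points), followed by E2F1 at 26.5 ± 7.14, E2F6 at 17.6 ± 1.61, E2F3 at 13.8 ± 1.90 and E2F5 at 13.5 ± 0.703 TPM. RB1 stood at 10.99 ± 0.522 TPM, above RBL1 at 6.92 ± 1.60 TPM. Among the E2F genes the lowest levels were those of E2F2 at 7.02 ± 2.34, E2F8 at 6.18 ± 2.12 and E2F7 at 4.49 ± 1.41 TPM. Only 3 steps in this order were free of overlap between the ranges of neighbours, namely E2F4 over E2F1, E2F5 over RB1 and RB1 over E2F2, and all other neighbours overlapped. The repressor E2F4 led the family in mRNA level, and the atypical repressors were at its lower end.

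At 72 h no member passed the test. The limma fit called 0 of 10, while 1.68% of all genes tested were called at this time point. An unadjusted p under 0.05 was found for 0 members, beside 2339 of the 16337 genes. Log2 fold changes ran from -0.19 for E2F2 to 0.22 for RB1, and 5 of the 10 were negative. In 0 members did all 4 depleted libraries lie below both si-NT libraries, against 6.93% of all genes. E2F3 was the one member with all 4 depleted libraries above both si-NT libraries, at 13.09 to 15.26 against 12.11 and 12.52 TPM, as were 16.3% of all genes, and its log2 fold change of 0.14 was not called (adjusted p = 0.628, 95% interval -0.10 to 0.38) and was -0.04 with ERCC scaling.

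The si-NT libraries of 72 h stood apart from each other in several members. E2F1 was 31.36 TPM in replicate 1 and 16.08 in replicate 2, E2F2 was 7.87 and 3.73, and E2F8 was 7.10 and 3.01. RBL1 was 7.19 and 4.70 TPM, and E2F7 was 4.58 and 2.59 TPM. The proliferation marker MKI67 was 32.76 TPM in replicate 1 and 20.11 TPM in replicate 2, so replicate 2 was the lower library in each of these genes. E2F6 went the other way, at 15.38 and 19.24 TPM, E2F4 was 48.33 and 44.60 TPM, and E2F3, E2F5 and RB1 differed by less than 1 TPM. The 95% intervals of the 72 h changes were -0.77 to 0.39 for E2F2, -0.56 to 0.68 for E2F8 and -0.58 to 0.64 for E2F1. All 4 groups share 1 estimate of the spread in the fit, so these intervals do not measure the 72 h spread alone. The SE of each member was the same at 72 h and 144 h, for example 0.26 for E2F2. Without si-NT replicate 2 the 72 h log2 fold change of E2F2 was -0.64 (adjusted p = 0.393), and without replicate 1 it was 0.27 (adjusted p = 0.771).

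**Figure D1:**
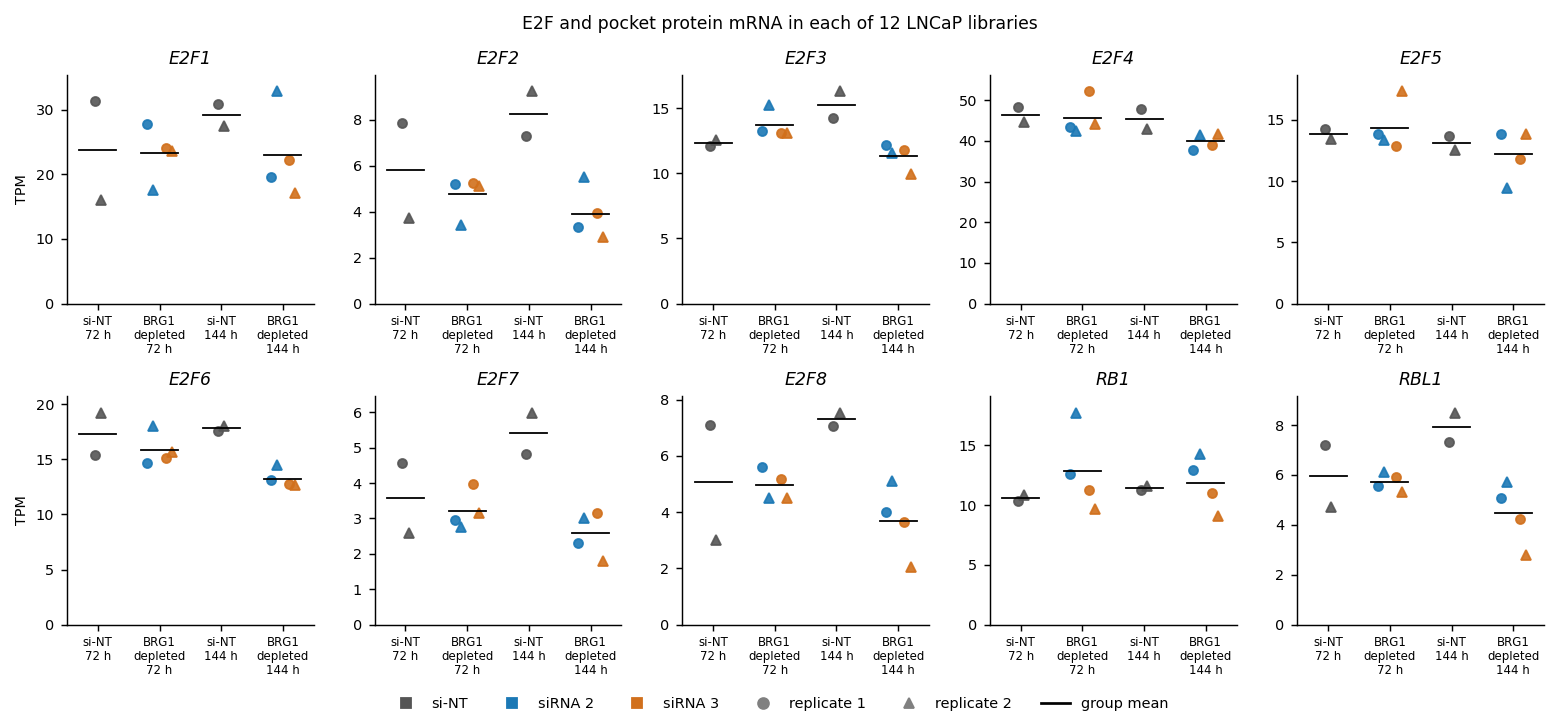
Each panel shows 1 gene, with TPM on a linear axis from 0 and the 4 groups along the horizontal axis. Points are single libraries, coloured by siRNA and shaped by replicate number, and bars are group means. At 144 h the groups separate in E2F2, E2F3, E2F4, E2F6, E2F7, E2F8 and RBL1, whereas E2F1, E2F5 and RB1 overlap at both time points.

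At 144 h, 6 of the 10 members were lower in BRG1 depleted cells and 0 were higher. They were the activators E2F2 and E2F3, the repressor E2F6, both atypical repressors E2F7 and E2F8, and the pocket protein RBL1. At this time point 24.4% of all genes tested were called in either direction and 10.8% were called lower. The median log2 fold change of the 10 members was -0.40, beside 0.03 over all genes. In 7 members, the 6 above and E2F4, all 4 depleted libraries lay below both si-NT libraries, as they did in 22.5% of all genes.

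E2F2 (chr1:23832930-23857725 in GRCh37, minus strand), an activator, fell the most of the 10 on the log2 scale in the fit of all libraries, but E2F8 came below it without si-NT replicate 2 of 144 h (-0.82 against -0.78) and without siRNA 2 replicate 1 of 144 h (-0.91 against -0.88). The controls held 7.27 and 9.22 TPM and the depleted libraries 3.31, 5.50, 3.93 and 2.91 TPM. Every depleted library lay below the lower control, and the mean was 52.5% lower. The log2 fold change was -0.93 (SE 0.26, limma adjusted p = 0.025). E2F3 (chr6:20402110-20493945, plus strand), the other activator that was called, fell less. It was 14.23 and 16.28 TPM in si-NT cells and 12.20, 11.55, 11.75 and 9.95 TPM in depleted cells, a mean 25.6% lower, with a log2 fold change of -0.40 (SE 0.11, adjusted p = 0.0231). The depleted libraries of E2F3 stood close together and all below the controls.

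E2F1 (chr20:32263283-32274191, minus strand), the best known activator, was not called. Its si-NT libraries held 30.94 and 27.51 TPM. The depleted libraries held 19.61 and 32.80 TPM for siRNA 2 and 22.19 and 17.03 TPM for siRNA 3. Thus 3 of 4 depleted libraries lay below both controls and the other, replicate 2 of siRNA 2, lay above both. The log2 fold change was -0.38 with a 95% interval of -0.98 to 0.23 (adjusted p = 0.358), which includes falls as large as that of E2F2.

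The atypical repressors were low in si-NT cells and lower after depletion. E2F7 (chr12:77415028-77459349, minus strand) was 4.81 and 5.99 TPM in the controls and 2.32, 3.02, 3.16 and 1.81 TPM in depleted libraries, 52.3% lower on average. Its log2 fold change was -0.85 (SE 0.21, adjusted p = 0.0148), the lowest adjusted p of the 10 members. E2F8 (chr11:19245610-19263167, minus strand) was 7.07 and 7.54 TPM in the controls and 3.99, 5.10, 3.66 and 2.04 TPM in depleted libraries, 49.4% lower on average. Neither gene had a depleted library within the control range. The log2 fold change of E2F8 was -0.87 (SE 0.28), and its adjusted p of 0.0454 was the closest to the threshold among the members called.

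E2F6 (chr2:11584501-11606303, minus strand), the repressor that acts apart from pocket proteins, fell by 0.40 on the log2 scale (SE 0.12, adjusted p = 0.0263). Its values were 17.59 and 18.04 TPM in si-NT cells and 13.13, 14.45, 12.76 and 12.68 TPM in depleted cells, 25.6% lower on average. E2F4 (chr16:67226058-67232821, plus strand) had 47.86 and 42.84 TPM in si-NT cells and 37.77, 41.55, 38.96 and 41.57 TPM in depleted cells. All 4 depleted values were below both controls, but the mean differed by 11.9%, and the log2 fold change of -0.18 was not called (95% interval -0.40 to 0.04, adjusted p = 0.226). E2F5, the other repressor of this kind, overlapped between groups, at 13.64 and 12.55 TPM against 9.40 to 13.87 TPM (log2 fold change -0.11, 95% interval -0.45 to 0.24, adjusted p = 0.667).

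Of the pocket proteins, RBL1 was called and RB1 was not, and the difference between them was not tested. RBL1 (chr20:35624752-35724400, minus strand), which binds mainly E2F4 and E2F5, was 7.31 and 8.50 TPM in si-NT cells and 5.07, 5.73, 4.25 and 2.79 TPM in depleted cells. Its mean was 43.6% lower, with a log2 fold change of -0.73 (SE 0.21, adjusted p = 0.0271). RB1 (chr13:48877880-49173572, plus strand), the retinoblastoma protein that binds the activators, was 11.24 and 11.56 TPM in si-NT cells. Its depleted libraries lay on both sides of the controls, with 12.97 and 14.28 TPM for siRNA 2 and 10.99 and 9.06 TPM for siRNA 3. The log2 fold change was 0.03 with a 95% interval of -0.43 to 0.49 (adjusted p = 0.932).

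**Figure D2:**
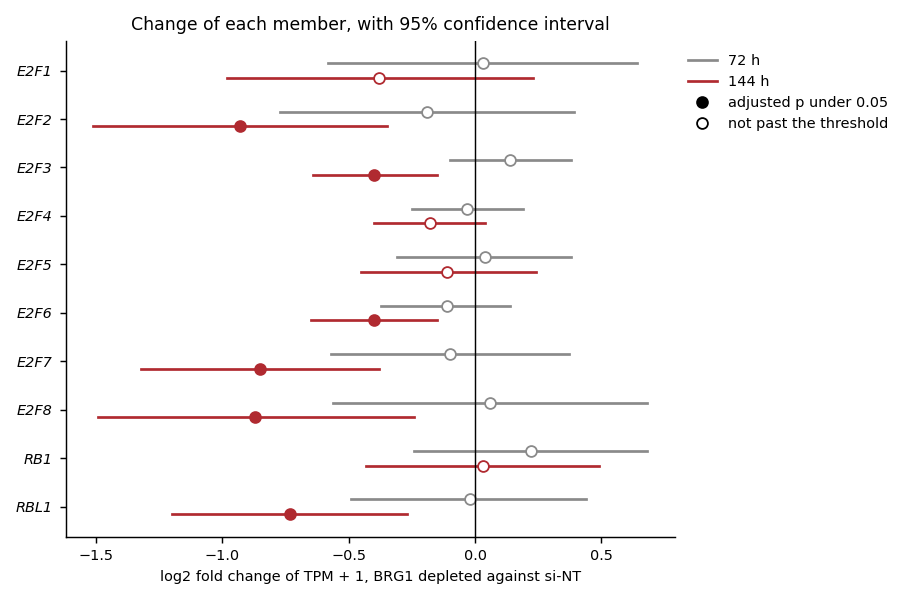
The log2 fold change of TPM + 1 in BRG1 depleted against si-NT cells is drawn for each member at 72 h (grey) and 144 h (red), with lines for the 95% confidence interval of the limma fit and filled points where the adjusted p was under 0.05. The 6 filled points are all at 144 h and all below 0, and every interval at 72 h includes 0.

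These calls rest on few control libraries. With either si-NT library of 144 h left out, 0 of the 10 members were called, and without siRNA 2 replicate 1 of 144 h 3 were, E2F3, E2F7 and RBL1. The 144 h log2 fold changes of the members ran from -1.08 to 0.14 over all fits that left out 1 library. Scaling the libraries to the ERCC spike-ins, which moved the all-gene median at 144 h to -0.31 on the log2 scale, left 2 members called, E2F2 and E2F7, and changed the split of all calls from 1761 lower and 2222 higher to 614 lower and 138 higher. E2F3, E2F6, E2F8 and RBL1 lost their calls under this scaling (adjusted p = 0.139, 0.138, 0.0743 and 0.0774). Their log2 fold changes were larger in size than without it, at -0.77, -0.78, -1.17 and -1.06. The calls of E2F2 and E2F7 were kept close to the threshold (adjusted p = 0.0495 and 0.0473).

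The difference between the time points was tested directly. The change at 144 h was more negative than that at 72 h in all 10 members, by a median of 0.47 on the log2 scale, but limma called 0 of them, beside 0.0184% of all genes. At an unadjusted p under 0.05 there were 4 members, beside 1943 of the 16337 genes. The members were E2F3 (difference -0.53, adjusted p = 0.277), E2F7 (-0.75, adjusted p = 0.374), E2F8 (-0.92, adjusted p = 0.397) and RBL1 (-0.71, adjusted p = 0.391). A step between 72 h and 144 h was therefore not shown for any member. Within si-NT cells 0 members were called between 144 h and 72 h, beside 0.0% of all genes. At an unadjusted p under 0.05 there was 1 member, beside 671 of the 16337 genes. Of the 10 log2 differences 8 were positive, with a median of 0.32. For E2F2 it was 0.51, for E2F7 0.51 and for E2F8 0.54. Within BRG1 depleted cells 0 members were called between the time points, beside 4.27% of all genes. At an unadjusted p under 0.05 there were 3 members, beside 3576 of the 16337 genes. All 10 log2 differences were negative, with a median of -0.24. For E2F2 it was -0.24, for E2F7 -0.24 and for E2F8 -0.38, each smaller in size than the difference of the opposite sign in si-NT cells, and neither was called. E2F3 had the lowest unadjusted p there (difference -0.25, adjusted p = 0.138).

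The siRNAs were then taken apart in a fit with 6 groups. Against si-NT at 144 h, siRNA 3 alone gave 6 members called, the same 6 as both siRNAs together, beside 20.2% of all genes. siRNA 2 alone gave 0 called, beside 21.3% of all genes. An unadjusted p under 0.05 was found for 5 members with siRNA 2, beside 5855 of the 16337 genes. RBL1 fell by 0.99 with siRNA 3 (adjusted p = 0.0115) and had a log2 fold change of -0.48 with siRNA 2 (adjusted p = 0.133). E2F8 fell by 1.14 with siRNA 3 (adjusted p = 0.0317) and had -0.59 with siRNA 2 (adjusted p = 0.209). E2F7 fell by 0.90 with siRNA 3 (adjusted p = 0.0366) and had -0.80 with siRNA 2 (adjusted p = 0.0523). The difference between the siRNAs was itself called in 0 members at 144 h, beside 0.331% of all genes, and in 0 at 72 h, beside 0.141%. Unadjusted p was under 0.05 for 1 member at 72 h, beside 1361 of the 16337 genes. At 144 h this held for 2 members, beside 2175 genes. RB1 was among them at both time points, with siRNA 3 below siRNA 2 by 0.48 at 72 h (unadjusted p = 0.0166, adjusted p = 0.476) and by 0.41 at 144 h (unadjusted p = 0.033, adjusted p = 0.336). The other at 144 h was RBL1, lower with siRNA 3 by 0.52 (unadjusted p = 0.0329, adjusted p = 0.335). In TPM, RB1 was 12.57 and 17.73 with siRNA 2 and 11.29 and 9.64 with siRNA 3 at 72 h. SMARCA4 at 144 h had log2 fold changes of -2.57 with siRNA 2 and -2.74 with siRNA 3.

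The makeup of the family was read from sums and ratios of TPM. Summed over E2F1 to E2F8, the mRNA level at 144 h was 141.7 ± 2.43 TPM in si-NT cells (SD, n = 2) and 109.9 ± 9.36 TPM in depleted cells (n = 4). The highest depleted library held 123.37 TPM and the lower control 139.97 TPM, so the sums did not overlap. At 72 h they did, at 115.24 and 140.98 TPM against 117.48 to 131.63 TPM. E2F7 and E2F8 together made up 8.28% and 9.67% of the sum in si-NT cells at 144 h and 3.78% to 6.58% in depleted cells. The activators E2F1 to E2F3 made up 36.6% and 37.9% in si-NT cells and 29.3% to 40.4% in depleted cells, which overlapped.

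Ratios taken within a library cancel any scaling of that library. RBL1 stood at 0.650 and 0.735 of RB1 in si-NT cells at 144 h and at 0.308 to 0.401 in depleted cells. At 72 h the same ratio was 0.694 and 0.435 in si-NT cells and 0.344 to 0.552 in depleted cells, with overlap. RBL1 to RB1 was 1 of 5 ratios, among the 45 pairs of members, whose depleted libraries of 144 h lay apart from all 4 si-NT libraries, and it is described without a test. E2F2 stood at 0.251 and 0.232 of E2F1 in si-NT cells at 72 h and at 0.235 and 0.335 at 144 h. In depleted cells it was 0.187 to 0.218 at 72 h and 0.168 to 0.177 at 144 h. The 4 si-NT libraries, the 4 depleted libraries of 72 h and the 4 of 144 h thus held separate ranges of the E2F2 to E2F1 ratio. This was the case for 1 of the 45 pairs of members, and this pair was picked out after all 45 had been computed, so its separation is a description without a test.

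**Figure D3:**
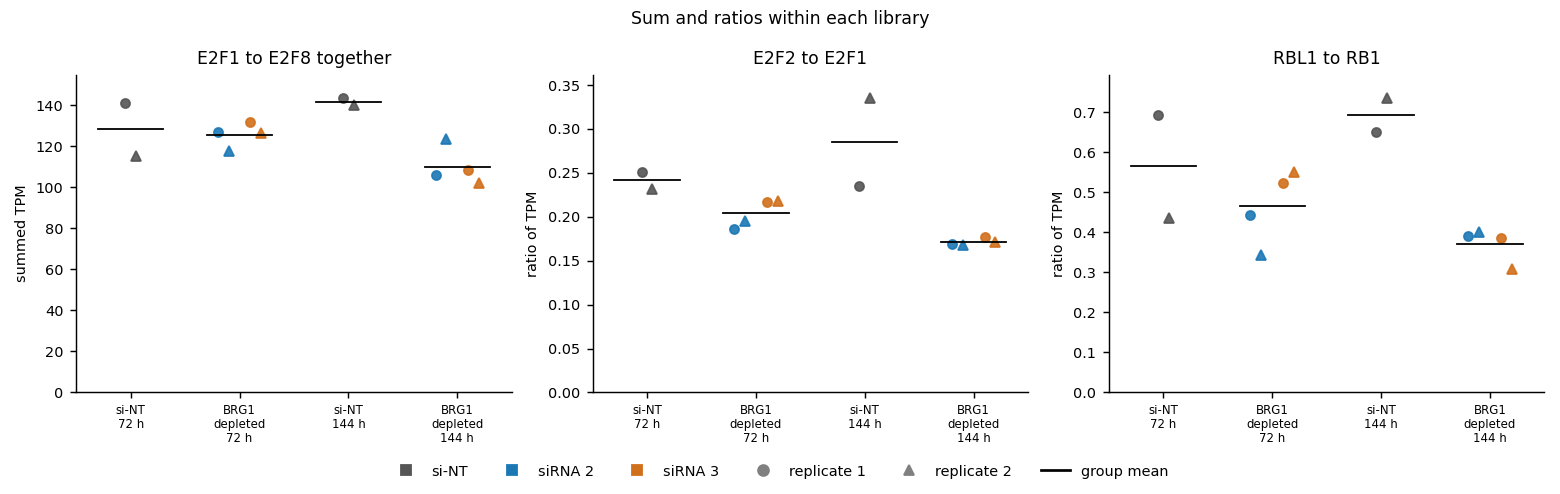
The left panel gives the summed TPM of E2F1 to E2F8, the middle panel the ratio of E2F2 to E2F1 and the right panel the ratio of RBL1 to RB1, each on a linear axis from 0 with 1 point per library and bars for group means. The E2F2 to E2F1 ratio lies between 0.168 and 0.177 in the 4 depleted libraries of 144 h, below every other library.

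The members differed in how closely they moved with MKI67, a protein of cycling cells. At 144 h MKI67 was 33.82 and 32.95 TPM in si-NT cells and 16.05, 22.28, 16.89 and 12.06 TPM in depleted cells (log2 fold change -0.98, adjusted p = 0.00678). In bulk RNA, fewer cycling cells and less of an mRNA in each cell cannot be told apart. Over the 12 libraries Pearson's r of log2(TPM + 1) with MKI67 was 0.93 for E2F2 and RBL1, 0.92 for E2F8 and 0.91 for E2F7. It was 0.73 for E2F1, 0.66 for E2F3 and 0.63 for E2F6. For E2F4 it was 0.54, for RB1 0.06 and for E2F5 0.02. Spearman's rho ordered the extremes alike, with 0.90 for E2F2, 0.04 for RB1 and 0.03 for E2F5. These are descriptions over libraries that share the siRNA treatment and the time points, and the part of cycling cells in the changes was not tested.

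**Figure D4:**
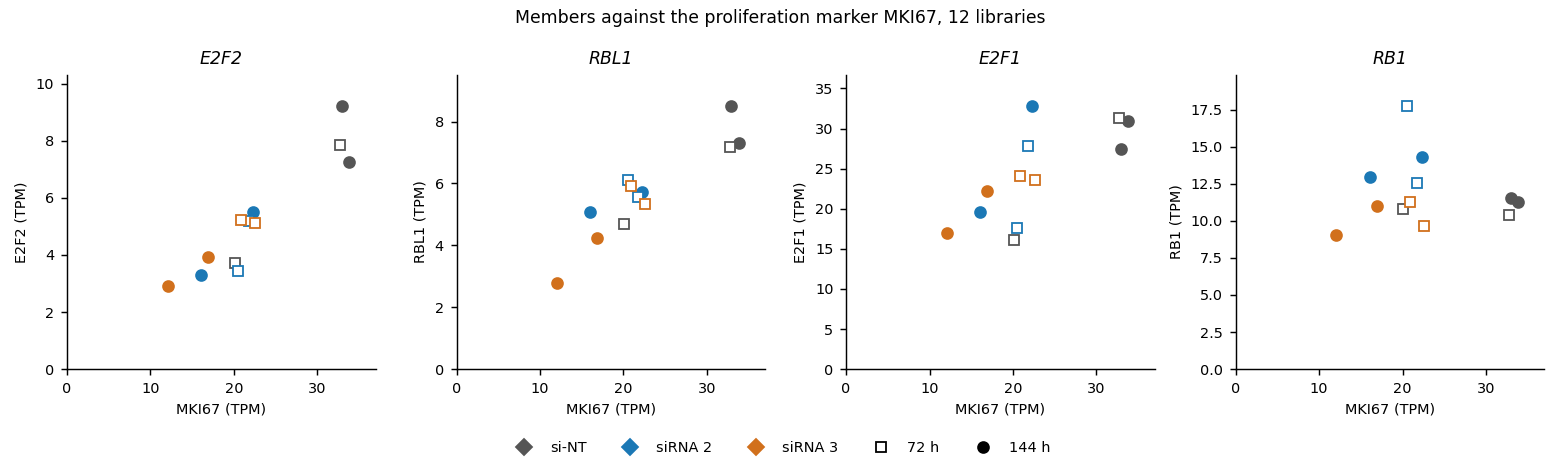
TPM of E2F2, RBL1, E2F1 and RB1 is plotted against TPM of MKI67 in the 12 libraries, on linear axes from 0, with colour for the siRNA, open squares for 72 h and filled circles for 144 h. E2F2 and RBL1 lie along a line from the depleted libraries of 144 h to the controls, the 72 h si-NT replicate 2 included, and RB1 shows no such line.

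Among the 16337 genes tested, those most like a member in pattern over the 12 libraries were found by the same measure. These genes were picked for the highest r of all, over libraries that share treatments and time points. Their values are therefore high by selection and are descriptions without a test. For E2F2 they were UBE2C (r = 0.995), MCM10 (0.986) and EXO1 (0.986). UBE2C is the ubiquitin-conjugating enzyme of the anaphase-promoting complex, MCM10 a replication initiation factor and EXO1 a DNA repair exonuclease. For E2F7 they were CDCA2 (0.976), RTKN2 (0.974) and NCAPG (0.974), and for E2F8 they included DIAPH3 (0.979) and ANLN (0.975). RBL1 was most like ERCC6L (0.977), GAS2L3 (0.971) and TXLNG (0.969), and E2F1 most like SPC24 (0.920), POLA2 (0.912) and POLE2 (0.909), a kinetochore component and subunits of DNA polymerases. The nearest genes of E2F6 were STXBP6 (0.967), FOXO4 (0.953) and CDIP1 (0.948), and those of RB1 were ECE1 (0.963), GPR176 (0.945) and an unnamed gene. E2F4 was nearest to KAT2A (0.946) and AMH (0.939), and E2F3 to UBAP2L (0.920) and CRACD (0.918). E2F5 was nearest to unnamed genes (0.931 and 0.913). The only named gene among its 3 nearest was ACTRT3 (0.821, Spearman's rho 0.476).

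The partners and targets of the family were read from 7 lists, 83 of whose 87 genes were tested. The lists were chosen with earlier results of these data known. At 72 h 0 of the 83 were called. At 144 h 54 were lower, beside 10.8% of all genes tested, and 1 was higher, unevenly spread over the lists. Without si-NT replicate 1 of 144 h 26 of these genes were called, and without replicate 2 there were 11. Of the dimer partners and the third pocket protein, TFDP1 fell by 0.46 (adjusted p = 0.0156) and TFDP2 by 0.45 (adjusted p = 0.0421). RBL2 (p130), the pocket protein of resting cells, was 22.4 ± 1.66 TPM in si-NT and 26.5 ± 6.95 TPM in depleted cells (log2 fold change 0.20, adjusted p = 0.505). RBL1 was thus the 1 pocket protein of 3 that was called.

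The MuvB core, MYB proteins and FOXM1 form, with E2F4 and pocket proteins, the complexes that repress or activate cell cycle genes. Of the 8 genes on this list 3 were lower and 0 were higher, beside 10.8% of all genes called lower. FOXM1, the activator of G2/M genes, fell by 0.93 (adjusted p = 0.00422) and MYBL2 (B-MYB) by 0.85 (adjusted p = 0.0243). The third call, LIN9 of the MuvB core, had a log2 fold change of -0.84 (adjusted p = 0.00683) and is named because it was called, whereas LIN37 was at 0.23 (adjusted p = 0.213) and MYBL1 at -0.18 (adjusted p = 0.605). Of 8 partners of E2F6, CBX3, a heterochromatin protein, was the one called, a share near the 10.8% of all genes called lower. It went from 342 ± 27.2 to 232 ± 5.41 TPM (log2 fold change -0.55, adjusted p = 0.0014). PCGF6 was at -0.40 (adjusted p = 0.0657), and L3MBTL2 and RYBP were at 0.22 and 0.21, neither called.

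Among 7 cyclins and kinases that phosphorylate pocket proteins, CDK4 was the one called, again a share near that of all genes. It was 353 ± 10.5 TPM in si-NT and 213 ± 23.4 TPM in depleted cells (log2 fold change -0.74, adjusted p = 0.00098). CDK2, at -0.55, was not called (adjusted p = 0.0633), and the cyclins CCND1 and CCNE1 stood at 0.01 and 0.04. Of 7 CDK inhibitors 1 was lower and 1 higher, a share near the 24.4% of all genes called in either direction. CDKN2A, whose products include p16, fell by 0.59 at the level of the whole gene (adjusted p = 0.0134). CDKN2B, which encodes p15, rose from 0.735 ± 0.361 to 4.03 ± 1.55 TPM (log2 fold change 1.50, adjusted p = 0.00323), the only gene of the lists that was called higher. It was not called higher with ERCC scaling or without si-NT replicate 2 of 144 h. A filter at a mean of 5 TPM left CDKN2B out of the test. CDKN1C was at 0.65 (adjusted p = 0.061).

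Most genes of the target lists were lower. Of 28 G1/S target genes of E2F, 25 were lower and 0 higher at 144 h, beside 10.8% of all genes called lower. Their median log2 fold change was -0.91, beside 0.03 over all genes. CDC6, which loads the replicative helicase, fell by 1.26 (adjusted p = 0.0018) and TK1, the thymidine kinase, by 1.22 (adjusted p = 0.00187). At the other end POLA1, the catalytic subunit of DNA polymerase alpha, fell by 0.51 (adjusted p = 0.0109), and SLBP, which binds histone mRNA, was at -0.20 (adjusted p = 0.267). Of 22 G2/M genes 21 were lower and 0 higher, beside the same 10.8% of all genes, with a median of -0.90. CCNB2, a B-type cyclin, fell by 1.20 (adjusted p = 0.00158), and the mitotic kinesins KIF20A and KIF23 had log2 fold changes of -1.19 (adjusted p = 0.00252) and -0.73 (adjusted p = 0.0106). The exception was CDK1, the mitotic kinase, at 346 ± 62.9 TPM in si-NT and 326 ± 19.1 TPM in depleted cells (log2 fold change -0.08, adjusted p = 0.879). The G2/M list includes MKI67.

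**Figure D5:**
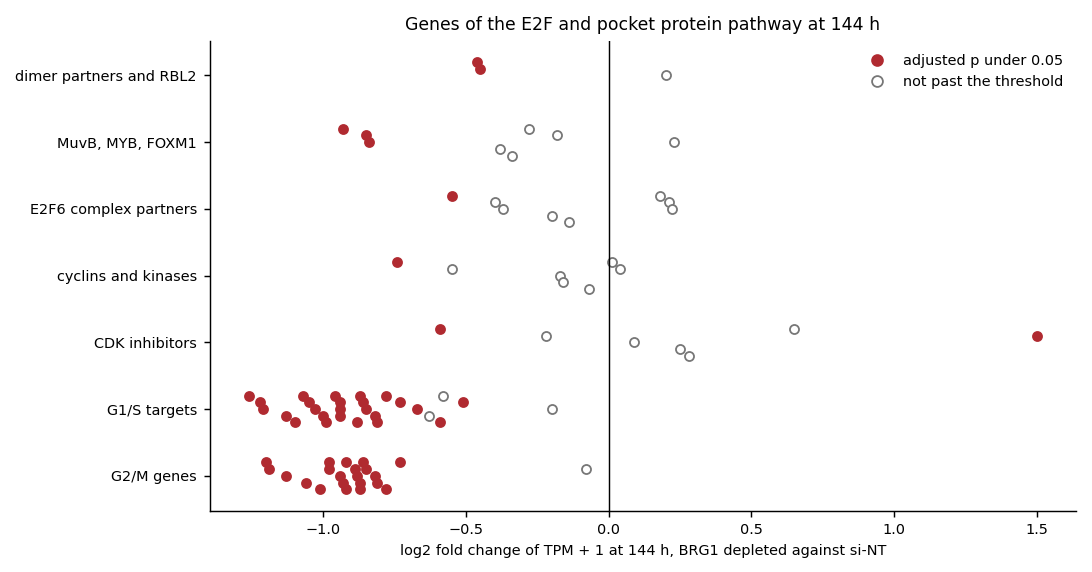
Each point is 1 gene of the 7 lists, placed by its log2 fold change of TPM + 1 at 144 h in BRG1 depleted against si-NT cells, and filled where the adjusted p was under 0.05. In the G1/S and G2/M lists all points lie below 0, and CDKN2B at 1.50 is the one filled point above 0.

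The promoter sequences were then set beside the changes. Of the 4 members whose window held an 8-base match, E2F2, E2F3 and RBL1 were called lower at 144 h and E2F1 was not. E2F6 and E2F7 were called lower without such a match, and E2F4 had neither. Among all tested genes with a window, 17.2% of the 697 with a match and 12.1% of the 9783 without were called lower at 144 h, and 10.9% and 14.9% were called higher. The median log2 fold change was -0.064 with a match and 0.017 without. The match is a description of letters and not of binding, and these forms were chosen after several had been tried.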

How the data were processed

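Total RNA of LNCaP cells was spiked with ERCC controls and made into stranded mRNA libraries, which were sequenced as paired ends. The authors mapped the reads to hg19 (GRCh37) with STAR (2.4.0j in the submitters' processing notes, which also name Trim Galore and FastQC), counted them into genes with featureCounts, and deposited TPM on GENCODE genes. The tool that made TPM is not given in the sources used here. The methods name normalisation to the ERCC controls, but the deposited TPM of each library, its 92 spike-ins included, adds up to 999999 to 1000001, so that scaling is not kept. Since TPM does not hold the depth, counting error cannot be given and count tests were not run. The libraries held 14706 to 15355 genes of at least 1 TPM, and 0 pairs held identical values. The table numbers the siRNAs 2 and 3 and the labels number them 1 and 2, and the labels of 1 library of 72 h give both numbers, so libraries were assigned to groups and siRNAs by the table's header.

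Values were analysed as log2(TPM + 1). Genes had to reach 1 TPM in 2 or more libraries, which left 16337, and these were fitted with limma 3.58.1 in R 4.3.3 (lmFit, eBayes with a trend, prior degrees of freedom 3.53), with 4 groups of siRNA and time that share 1 estimate of the spread. A second fit had 6 groups, with the siRNAs apart. Every adjusted p is limma's, with Benjamini-Hochberg adjustment over all genes tested, and a gene was called when it was under 0.05. The fit was tested on simulated data. Symbols and coordinates of genes come from GENCODE 44 lifted to GRCh37, which is not the authors' release, and 68.64% of the genes had a symbol. UHRF1 and PECAM1 were on the lists but were not matched. Promoters are those of RefSeq on GRCh38.p14, and 8 of the 10 members had an entry. Sums and plots were made in Python 3.11.15.

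The members, the pathway lists and the rule for named genes were chosen with earlier results of these data known. The rule names the 10 members and SMARCA4, in each list the genes with the 2 lowest and 2 highest log2 fold changes at 144 h, all tested genes of a list of up to 4, and for each member the 3 genes with the highest Pearson's r, some of which are not reported here. MKI67 and the motif forms were picked after values had been seen. Results were recomputed with 0.1 as pseudocount, with median-of-ratios, quantile and ERCC scaling, with no filter or a mean of at least 5 TPM, with the replicate number as a block, with eBayes without trend, with the 4 si-NT libraries as 1 group, on the 6 libraries of 144 h alone, with a log2 fold change beyond 1.5, and without each library in turn.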

Additional observations from a re-analysis of the deposited data

Results flagged for a closer look

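In 3 of the 22 groups of 4 BRG1 depleted libraries tested, for the members and SMARCA4 at either time point, 1 library stood apart from the other three by Dixon's criterion on the gap divided by the range. Chance alone marks about 1 in 20 such groups. E2F2 at 72 h was 3.43 TPM in replicate 2 of siRNA 2, while the other libraries held 5.13 to 5.22 TPM. E2F3 in the same library was 15.26 TPM, above 13.09 to 13.27 TPM in the others. E2F4 at 72 h was 52.13 TPM in replicate 1 of siRNA 3, above 42.49 to 44.07 TPM in the others. All of these are from 72 h, and no member was called there.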

How the results depend on the processing

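The number of members called at 144 h, 6 as reported, was 2 with ERCC scaling, 3 with no filter, 3 in the 6 libraries of 144 h alone, and 0 with a log2 fold change beyond 1.5. It ranged from 0 to 6 when single libraries were left out. No member reached a log2 fold change beyond 1.5 in size. Of the pathway genes, 40 were called at 144 h with no filter and 47 with the si-NT libraries combined. The 55 pathway genes called at 144 h became 34 with ERCC scaling and 0 with a log2 fold change beyond 1.5, and ranged from 11 to 57 when single libraries were left out. The counts of members called at 72 h, between the time points and between the siRNAs, 0 as reported, were 0 in every setting tried. The counts for each siRNA alone are not given here for the other settings, and E2F7 with siRNA 2 stood near the threshold (adjusted p = 0.0523). E2F8 lost its call in 9 of 12 fits without 1 library and in 5 of 9 other settings, E2F7 in 2 of 12 and in 0 of 9.

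The sign of values near 0 changed at 72 h. With median-of-ratios scaling E2F1 was at -0.04 and E2F5 at -0.03, and with quantile normalisation they were at -0.02 and -0.04. With ERCC scaling E2F1 was at -0.16, E2F3 at -0.04, E2F5 at -0.15 and E2F8 at -0.10, and at 144 h RB1 was at -0.34. With the si-NT libraries combined E2F1 was at -0.15 and E2F8 at -0.21. With single libraries left out, the 72 h values ranged from -0.43 to 0.49 for E2F1, from -0.64 to 0.27 for E2F2, from -0.10 to 0.02 for E2F4, from -0.05 to 0.08 for E2F5, from -0.27 to 0.04 for E2F6, from -0.42 to 0.22 for E2F7, from -0.45 to 0.57 for E2F8 and from -0.29 to 0.24 for RBL1, and RB1 at 144 h from -0.06 to 0.14. None of these was called in any setting. The cause was not tested.

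Replicate numbers did not pair the libraries. Over 15 pairs of groups the correlation of same-numbered deviations ran from -0.229 to 0.30, with a median of -0.0202 and 2 over 0.1. With the replicate number as a block, 6 members were called at 144 h, the same genes as without it, and it changed no other call of a member.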

Other observations

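Among the members themselves, the closest pairs over the 12 libraries were E2F8 with RBL1 (Pearson's r of log2(TPM + 1) 0.95, Spearman's rho 0.91), E2F2 with E2F7 (0.94 and 0.90) and E2F2 with E2F8 (0.90 and 0.91). E2F3 and E2F6, an activator and a repressor, were at 0.74 by both measures, and RB1 and E2F5 at -0.44 and -0.56. These are descriptions over libraries that share treatments and time points.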
